A study of Mus musculus with 3 samples.

Results

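The 10 genes described here make up the MHC class II presentation machinery of mouse B cells: Ciita, H2-Aa, H2-Ab1, H2-Eb1, Cd74, H2-DMa, H2-DMb1, H2-DMb2, H2-Oa and H2-Ob. They were chosen by symbol, and each matched 1 of the 33700 gene rows in every table. RNA came from C57BL/6 splenic B cells that lacked surface CD43, a marker found on activated B cells and on most cells that are not B cells. All cultures received lipopolysaccharide and interleukin-4 for 3 days. The 3 groups were JQ1+ at 80 nM, flavopiridol at 30 nM and DMSO, the vehicle, with 1 library each. JQ1 displaces BET proteins from acetylated chromatin, and flavopiridol inhibits cyclin-dependent kinases including Cdk9, which releases paused RNA polymerase. The drugs are structurally unrelated and were used at different doses, so their values stand side by side.

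MHC class II molecules carry peptides from endosomes to the cell surface, where CD4 T cells read them. An alpha and a beta chain assemble with the invariant chain, Cd74, whose remnant fills the groove until H2-DM exchanges it for peptide. H2-O, found in B cells and some other antigen-presenting cells, holds H2-DM back. Ciita, the class II transactivator, does not bind DNA itself but joins factors seated on the X and Y boxes of class II promoters. Mice of the C57BL/6 strain make the A molecule (H2-Aa with H2-Ab1) and no E molecule, because their H2-Ea gene is defective, although H2-Eb1 is transcribed.

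With 1 library per group no difference has a replicate check, so the text holds no p-values. Levels are RPKM, reads scaled to gene length and to the library, which allows genes of different length to be compared. The words rose and fell are kept for genes whose log2((RPKM + 1)/(RPKM + 1)) reached 1 or -1, a 2-fold change, out of 14791 symbols averaging 1 RPKM or more over the 3 libraries. All 10 class II genes passed that minimum. Beside each plain RPKM ratio stands its 95% interval for counting error, which leaves out how cultures vary. The deposited counts summed to 51247080 for JQ1+, 50184508 for flavopiridol and 59786847 for DMSO, and single class II genes had between 1221 and 230180 counts. Because each library is set to its own total, a shift common to every transcript cannot be seen in RPKM, and a smaller share of cells expressing a gene and less RNA per cell cannot be told apart.

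None of the 10 class II genes rose or fell with either drug, where 7.27% of all genes passed the 2-fold rule with JQ1+ and 6.43% with flavopiridol. Among the 3985 genes averaging 50 RPKM or more, a limit that all 10 also pass, the shares were 3.84% and 2.63%. Within that range the members differed from one another. Ciita stood above DMSO with both drugs, the classical chains stood close to DMSO, and an H2-O chain stood lowest with each drug, H2-Ob at 0.729 times its DMSO level in JQ1+ and H2-Oa at 0.513 times in flavopiridol. The 10 genes together summed to 16446 RPKM in JQ1+, 13530.1 in flavopiridol and 16676 in DMSO, and they took 0.942%, 0.729% and 0.914% of all counts in the same order of libraries.

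The promoter sequences of 7 members show what these genes share upstream of their start. RefSeq entries of build GRCm38.p6, running from 250 bases before to 50 bases after the start, were matched for H2-Aa, H2-Eb1, H2-DMa, H2-DMb1, H2-DMb2, H2-Oa and H2-Ob. Both strands were searched. CCAAT, the core of the Y box bound by NF-Y, was found in all 7. Of 27025 genes with a promoter entry, 41.1% hold it in any of their promoters. The other motifs were chosen after the sequences were read, with AACNNATGA in place of a longer X box pattern that had been planned. CCAATCA, which contains CCAAT, was found in 6 of the 7 members and in 9% of genes. Each of the 6 carried it on the strand opposite to the gene, where it reads TGATTGG, with its first base between 45 and 92 bases before the start. AACNNATGA, a part of the X box bound by the RFX complex in several members, was found in H2-DMb1, H2-DMb2, H2-Eb1 and H2-Ob and in 3.28% of genes. TGACGTCA, the palindrome bound by CREB family factors, was found in H2-Aa and in 2.03% of genes. A match is a description of letters and not evidence of binding in these cells.

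The 63-base stretches around TGATTGG are shown because Ciita is known to act through the X and Y boxes of class II promoters. They were picked by TGATTGG alone, so a stretch need not hold every box. In capitals are TGATTGG and, where present, the matches to AACNNATGA and TGACGTCA. The stretches lie at chr17:34287861-34287923 on the minus strand for H2-Aa, chr17:34305756-34305818 plus for H2-Eb1, chr17:34153078-34153140 plus for H2-DMb1, chr17:34145107-34145169 plus for H2-DMb2, chr17:34238796-34238858 plus for H2-Ob and chr17:34092284-34092346 plus for H2-Oa.
H2-Aa: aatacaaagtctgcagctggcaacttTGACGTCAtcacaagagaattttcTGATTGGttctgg
H2-Eb1: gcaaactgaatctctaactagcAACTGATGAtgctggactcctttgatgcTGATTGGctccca
H2-DMb1: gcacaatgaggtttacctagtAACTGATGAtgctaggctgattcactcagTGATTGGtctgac
H2-DMb2: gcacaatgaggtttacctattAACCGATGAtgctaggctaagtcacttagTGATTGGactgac
H2-Ob: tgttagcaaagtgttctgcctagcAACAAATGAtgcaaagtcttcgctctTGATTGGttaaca
H2-Oa: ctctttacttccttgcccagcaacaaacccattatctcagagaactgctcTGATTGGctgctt
Between AACNNATGA and TGATTGG lie 20 bases in H2-DMb1 and in H2-DMb2, 19 in H2-Eb1 and 17 in H2-Ob, and 16 bases separate TGACGTCA from TGATTGG in H2-Aa. H2-Oa carries TGATTGG without either of the other matches.

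Ciita, the regulator, was the member furthest above DMSO. It had 199.6 RPKM in JQ1+, 170.0 RPKM in flavopiridol and 129.7 RPKM in DMSO. That is 1.54 times the DMSO level in JQ1+ (interval 1.49 to 1.59) and 1.31 times in flavopiridol (interval 1.27 to 1.36). Among the 3985 genes of at least 50 RPKM, its log2 difference with JQ1+ (0.62) lay at percentile 97.0, and that with flavopiridol (0.39) at percentile 79.2. By level it ranked 621 in JQ1+, 932 in flavopiridol and 1126 in DMSO among 20976 protein-coding symbols.

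**Figure D1:**
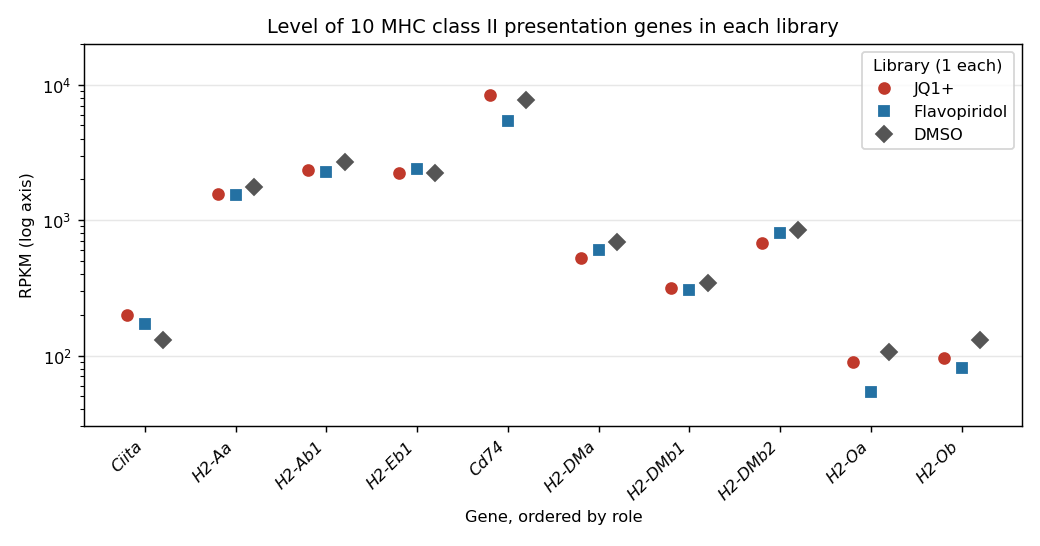
RPKM (log axis) of the 10 class II genes in the JQ1+, flavopiridol and DMSO libraries, 1 point per library. Cd74 is highest in each library, at 5357 to 8404 RPKM, and H2-Oa is lowest, at 54.1 to 106 RPKM.

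The classical chains, which form the peptide-binding surface molecule, were among the most abundant transcripts and lay near DMSO. H2-Aa, the alpha chain of the A molecule, had 1566 RPKM in JQ1+, 1525 in flavopiridol and 1762 in DMSO. H2-Ab1, its beta chain, had 2344 RPKM in JQ1+, 2250.0 in flavopiridol and 2687 in DMSO. Both were thus somewhat lower in each drug library, with H2-Aa at 0.889 times DMSO in JQ1+ (interval 0.873 to 0.905) and 0.865 times in flavopiridol (interval 0.849 to 0.882). For H2-Ab1 the ratios were 0.872 (interval 0.858 to 0.887) in JQ1+ and 0.837 (interval 0.823 to 0.852) in flavopiridol. H2-Eb1, the beta chain of the E molecule, had 2233 RPKM in JQ1+, 2385 in flavopiridol and 2225 in DMSO. Its interval over DMSO in JQ1+, 0.983 to 1.02, includes 1, and its ratio was 1.07 in flavopiridol (interval 1.05 to 1.09), and the log2 value for flavopiridol turned from 0.10 to -0.04 when libraries were rescaled by the median of ratios.

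The chains of the A molecule stood in close proportion across libraries, and H2-Eb1 did not. H2-Ab1 stood at 149.7% of the H2-Aa RPKM in JQ1+ (interval 147 to 152), 148% in flavopiridol (interval 145 to 150.5) and 153% in DMSO (interval 150.1 to 155). Such a ratio does not depend on how libraries are scaled. H2-Eb1 stood at 143% of H2-Aa in JQ1+, 156% in flavopiridol and 126% in DMSO, with intervals that do not overlap. As a result the order of the top chains differed by library: H2-Eb1 was at 0.953 times H2-Ab1 in JQ1+ (interval 0.935 to 0.971), 1.06 times in flavopiridol (interval 1.04 to 1.08) and 0.828 times in DMSO (interval 0.814 to 0.843).

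Cd74, the invariant chain, separated the drugs. It had 8404 RPKM in JQ1+, 5357 in flavopiridol and 7756 in DMSO, ranking 3, 12 and 6 among protein-coding symbols. JQ1+ was thus slightly above DMSO, with a ratio of 1.08 (interval 1.07 to 1.09), and flavopiridol below it, with a ratio of 0.691 (interval 0.683 to 0.699). The flavopiridol difference lay at percentile 5.55 among genes of at least 50 RPKM and the JQ1+ difference at percentile 77.0. Against its partner H2-Aa, Cd74 stood at 537% in JQ1+, 351% in flavopiridol and 440.3% in DMSO, and these intervals do not overlap (529 to 545, 345 to 357 and 434 to 447).

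**Figure D2:**
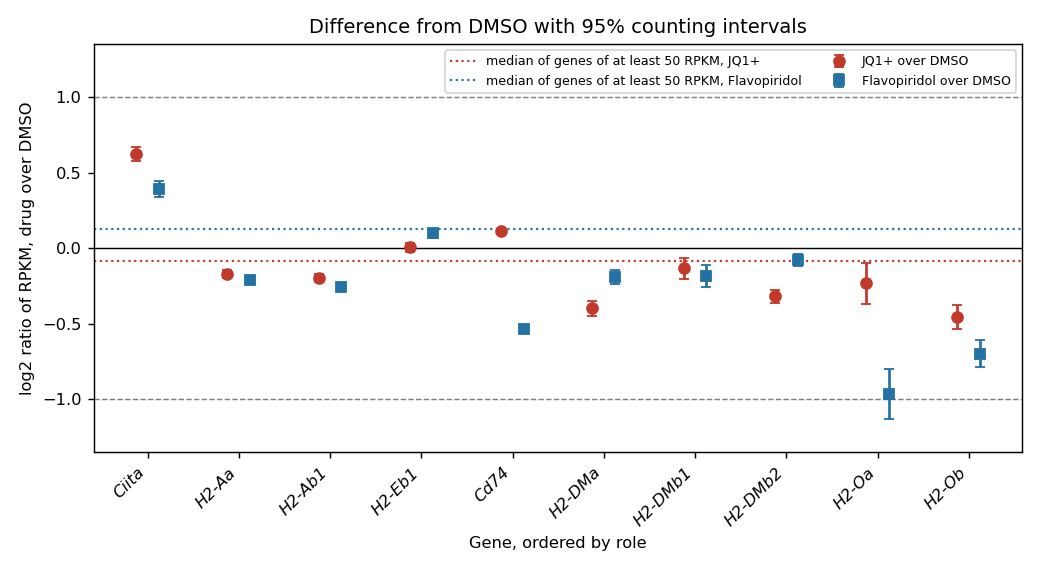
log2 ratio of plain RPKM over DMSO for the 10 class II genes, JQ1+ left of flavopiridol, with bars for the 95% counting interval, dotted lines at each drug's median over genes of at least 50 RPKM and dashed lines at a 2-fold difference. All values lie inside the dashed lines, Ciita highest in both drugs and H2-Oa lowest in flavopiridol at 0.513 times DMSO, with an interval of 0.457 to 0.574 that reaches across the line.

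The peptide editor H2-DM was lower in both drug libraries, by less than 2-fold. H2-DMa, the alpha chain, had 522 RPKM in JQ1+, 604 in flavopiridol and 688 in DMSO, which gives ratios to DMSO of 0.759 (interval 0.734 to 0.785) and 0.877 (interval 0.848 to 0.907). H2-DMb2, a beta chain, had 679 RPKM in JQ1+, 802 in flavopiridol and 847 in DMSO. H2-DMb1, the other beta chain, had 314 RPKM in JQ1+, 303 in flavopiridol and 344 in DMSO. The JQ1+ value was the lowest of the 3 for H2-DMa and H2-DMb2, and the flavopiridol value was the lowest for H2-DMb1, where the interval of JQ1+ over flavopiridol, 0.985 to 1.09, includes 1.

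H2-DMb1 and H2-DMb2 are near copies, so the split of reads between them is uncertain. Over 1211 aligned bases their longest annotated transcripts (GENCODE M21) were 94.8% identical, and the longest run they share without a difference was 221 bases. Of the 50-base words in the H2-DMb1 transcript, 26.6% also occur in H2-DMb2, and no other pair of members shared a 50-base word. How reads with several matches were treated is not given in the sources used here. H2-DMb2 stood at 2.16 times H2-DMb1 in JQ1+, 2.65 times in flavopiridol and 2.46 times in DMSO.

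The H2-O chains, which inhibit H2-DM, were the members furthest below DMSO in flavopiridol. H2-Oa had 90.0 RPKM in JQ1+, 54.1 in flavopiridol and 106 in DMSO. The ratio was 0.513 in flavopiridol (interval 0.457 to 0.574), a log2 value of -0.95 that misses the 2-fold rule, and 0.852 in JQ1+ (interval 0.775 to 0.936). H2-Oa passes the rule in flavopiridol when libraries are rescaled by the median of ratios (-1.09) or to the sum of protein-coding counts (-1.03). H2-Ob had 95.6 RPKM in JQ1+, 80.9 in flavopiridol and 131 in DMSO. Its ratio was 0.617 in flavopiridol (interval 0.580 to 0.656) and 0.729 in JQ1+ (interval 0.689 to 0.771). Both chains were thus lowest in flavopiridol, at percentiles 1.66 for H2-Oa and 3.99 for H2-Ob among genes of at least 50 RPKM, and at percentiles 30.8 and 13.0 in JQ1+.

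The proportion of inhibitor to editor transcript also differed between libraries. H2-Oa stood at 17.2% of the H2-DMa RPKM in JQ1+ (interval 16.0 to 18.6), 8.97% in flavopiridol (interval 8.12 to 9.89) and 15.3% in DMSO (interval 14.4 to 16.4). The flavopiridol interval lies below the other two, which overlap. H2-Ob stood at 30.4% of H2-DMb1 in JQ1+ (interval 28.8 to 32.2), 26.7% in flavopiridol (interval 25.1 to 28.4) and 38.1% in DMSO (interval 36.3 to 40.0). Here the drug intervals lie below that of DMSO, with the uncertainty of the H2-DMb1 counts named above. Protein levels were not measured.

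Ciita and the genes it serves did not keep one proportion across libraries. Ciita stood at 12.8% of the H2-Aa RPKM in JQ1+ (interval 12.4 to 13.1), 11.2% in flavopiridol (interval 10.8 to 11.5) and 7.36% in DMSO (interval 7.16 to 7.57). Against H2-Ob it stood at 2.09 times in JQ1+ (interval 1.99 to 2.19), 2.10 times in flavopiridol (interval 1.99 to 2.22) and 0.989 times in DMSO (interval 0.947 to 1.03). The regulator was therefore at the level of H2-Ob in DMSO and above it in both drug libraries.

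**Figure D3:**
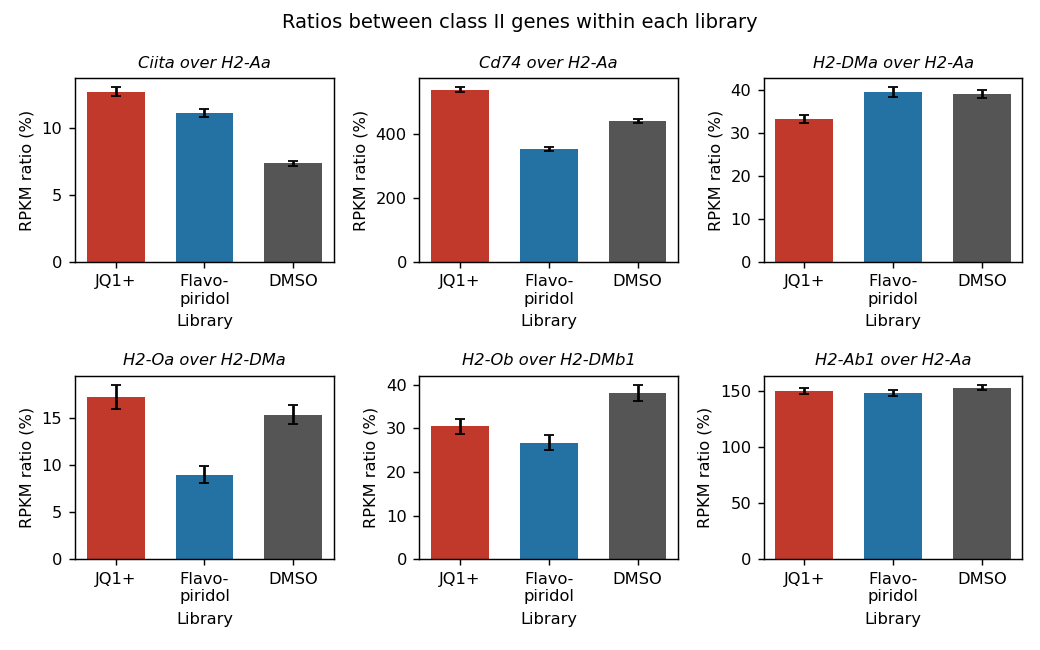
RPKM of one class II gene as a percentage of another in the same library (bars from 0, with 95% counting intervals), for JQ1+, flavopiridol and DMSO from left to right. H2-Ab1 over H2-Aa stays between 148% and 153%, while H2-Oa over H2-DMa is 8.97% in flavopiridol and 17.2% and 15.3% in JQ1+ and DMSO.

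As a group the class II genes lay slightly below DMSO with both drugs. In JQ1+ 7 members were lower and 3 higher in plain RPKM, with a median log2 value of -0.18 beside -0.08 for all genes. In flavopiridol 8 were lower and 2 higher, with a median of -0.20 beside 0.13 for all genes, so the class II median stood 0.33 below that of all genes. Of the 10 genes, 7 lay below the lower quartile of all genes in flavopiridol and 2 in JQ1+. These comparisons share the DMSO library. After rescaling by the median of ratios the class II medians were -0.09 for JQ1+ and -0.34 for flavopiridol, a rescaling that itself adds 0.09 and -0.14 to the log2 ratios of plain RPKM.

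Set directly against flavopiridol, JQ1+ had no class II gene past 2-fold, where 8.92% of all genes passed (2.06% higher and 6.87% lower in JQ1+), or 5.07% of genes averaging 50 RPKM or more. H2-Oa was at 1.66 times the flavopiridol level (interval 1.48 to 1.87) and Cd74 at 1.57 times (interval 1.55 to 1.59). H2-DMa, at 0.865 times (interval 0.834 to 0.897), and H2-DMb2, at 0.846 times (interval 0.820 to 0.873), were lower in JQ1+. The class II median was 0.06 beside -0.21 for all genes, and 0.29 under median-of-ratios scaling. Over all genes, that rescaling itself adds a median of 0.22 to the log2 values. Under that rescaling the log2 value of H2-DMa turned from -0.21 to 0.03 and that of H2-Eb1 from -0.09 to 0.14.

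Factors that occupy class II promoters showed no 2-fold change. Of 12 measured, among them the RFX subunits, the NF-Y subunits and the coactivators Crebbp and Ep300, none rose or fell with JQ1+ or flavopiridol, and their medians were -0.05 and -0.04. Under median-of-ratios scaling the JQ1+ median of this list turned to 0.04, that of the Ciita regulators below to 0.05 and that of the traffic genes to 0.06. Rfx5, the DNA-binding RFX subunit, had 29.1 RPKM in JQ1+, 33.8 in flavopiridol and 33.1 in DMSO. The members of this list that differed most were Kat2b, a histone acetyltransferase (18.9, 11.7 and 14.5 RPKM in JQ1+, flavopiridol and DMSO), and Nfyb, an NF-Y subunit (22.05, 32.5 and 22.6 RPKM). Rfxank, another RFX subunit (log2 -0.31), and Ep300 (-0.30) were lower in flavopiridol by less than 2-fold.

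Among 11 measured regulators of Ciita, 1 rose with JQ1+ and with flavopiridol, with median log2 values of -0.04 and -0.12. Prdm1, which encodes Blimp-1, a repressor of Ciita in plasma cell differentiation, rose to 67.2 RPKM in JQ1+ and 56.5 in flavopiridol, against 26.9 in DMSO. Its ratio to DMSO was 2.50 in JQ1+ (interval 2.32 to 2.68) and 2.10 in flavopiridol (interval 1.95 to 2.26), and the flavopiridol call is lost when libraries are rescaled by the median of ratios (0.90) or to protein-coding counts (0.97). Prdm1 and Ciita were thus both above DMSO in both drug libraries. Pax5, a B cell identity factor, had 168 RPKM in JQ1+, 164 in flavopiridol and 137 in DMSO. Spi1 (log2 -0.48 in JQ1+ and -0.72 in flavopiridol), Stat6, the interleukin-4 signal transducer (-0.59 and -0.49), Irf4 (0.00 and 0.52) and Xbp1 (-0.01 and -0.40) stayed within 2-fold. The percentage of all genes that rose was 1.98% with JQ1+ and 3.55% with flavopiridol, and 5.29% and 2.88% fell.

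Of 11 endosomal proteolysis genes, which cut antigen and invariant chain, 1 rose with JQ1+ and none passed 2-fold with flavopiridol, and the medians were 0.09 and -0.08. Ifi30 encodes GILT, the thiol reductase that opens disulfide bonds of antigens. It rose to 1446 RPKM in JQ1+ and stood at 856 in flavopiridol, against 675 in DMSO. Its ratio to DMSO was 2.14 in JQ1+ (interval 2.07 to 2.22) and 1.27 in flavopiridol (interval 1.22 to 1.32). Ctss, the cathepsin that trims invariant chain, had 459 RPKM in JQ1+, 528 in flavopiridol and 635 in DMSO, so it lay on the other side of DMSO from Ifi30. Ctsb (log2 0.38 in JQ1+), Sppl2a, the protease that clears the Cd74 stub (-0.60 in JQ1+), and Ctsl (-0.74 in flavopiridol) did not pass 2-fold.

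Of 11 traffic and turnover genes, 1 fell with JQ1+ and none rose or fell with flavopiridol, and the medians were -0.03 and -0.01. March1, the ubiquitin ligase that takes class II off the surface, fell to 5.72 RPKM in JQ1+ and stood at 10.1 in flavopiridol, against 13.8 in DMSO. March1 in JQ1+ was 2.41-fold lower than in DMSO (interval 2.10 to 2.78), and 1.37-fold lower in flavopiridol (interval 1.21 to 1.54). March8, a related ligase, had 1.89 RPKM in JQ1+, 4.74 in flavopiridol and 2.08 in DMSO. In flavopiridol March8 was at 2.29 times DMSO in plain RPKM (interval 1.79 to 2.94), but its log2 value of 0.90 misses the rule. The tetraspanins Cd82 (log2 -0.88 in JQ1+) and Cd9 (0.87 in JQ1+) differed in opposite directions, both short of 2-fold. The lysosomal protein Lamp1 had 304 RPKM in JQ1+, 304 in flavopiridol and 307 in DMSO.

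**Figure D4:**
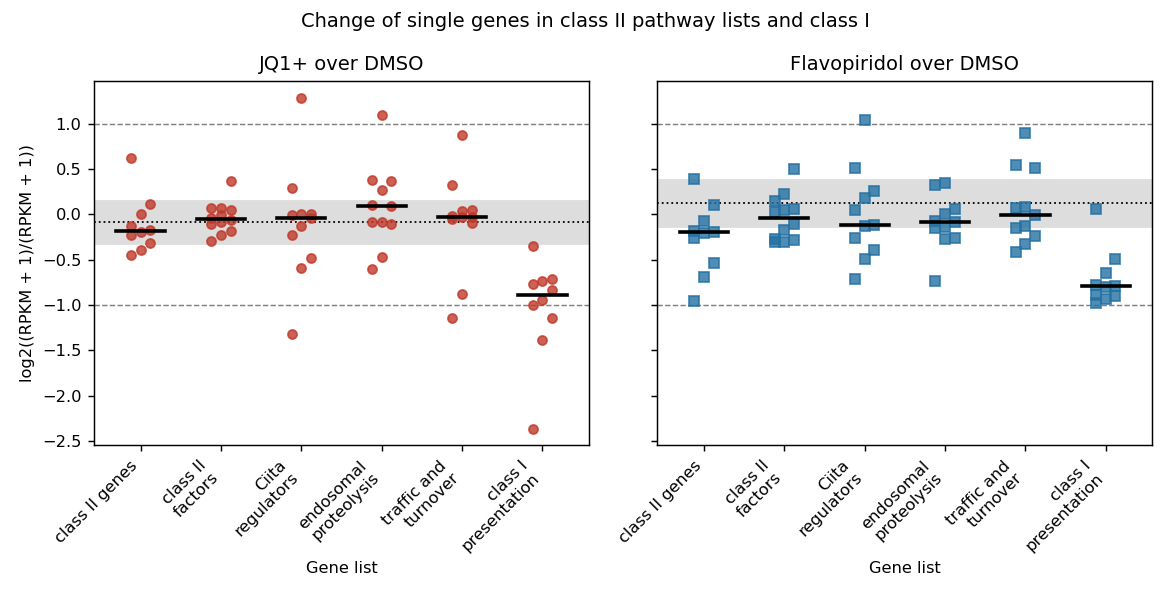
log2((RPKM + 1)/(RPKM + 1)) over DMSO of each measured gene in 6 lists, JQ1+ on the left and flavopiridol on the right, with black bars at list medians, the grey band from the lower to the upper quartile of all 14791 genes, a dotted line at their median and dashed lines at 2-fold. The class II median is -0.18 in JQ1+ and -0.20 in flavopiridol, and the class I median is -0.89 and -0.80.

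Class I presentation genes lay further below DMSO than class II genes in both drug libraries. Of 10 measured, 4 fell with JQ1+ (Nlrc5, H2-Q7, H2-T22 and B2m, the last lost under all 3 rescalings), none fell with flavopiridol (4 did after rescaling by the median of ratios), and the list medians were -0.89 and -0.80. The paired regulators lay on opposite sides of DMSO: Nlrc5, the class I transactivator and a relative of Ciita, had 29.4 RPKM in JQ1+, 39.3 in flavopiridol and 78.5 in DMSO, 2.67-fold lower in JQ1+ (interval 2.51 to 2.83) and 1.998-fold lower in flavopiridol (interval 1.89 to 2.11).

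Genes of the class II region did not share one direction. In the RefSeq order along chromosome 17, the genes run H2-Oa, Brd2, H2-DMa, H2-DMb2, H2-DMb1, Psmb9, Tap1, Psmb8, Tap2, H2-Ob, H2-Ab1, H2-Aa, H2-Eb1, H2-Eb2, H2-Ea and Btnl2. Psmb9 is not analysed here. Tap1, a subunit of the class I peptide pump encoded between the H2-DM and H2-O beta chain genes, fell to 90.3 RPKM in JQ1+ and stood at 151 in flavopiridol, against 203 in DMSO. Its neighbours Psmb8, an immunoproteasome subunit (log2 -0.48 in JQ1+ and 0.04 in flavopiridol), and Tap2 (-0.71 and -0.17) stayed within 2-fold. Brd2, a BET protein gene and so the gene of a JQ1 target, lies between H2-Oa and H2-DMa and had 194 RPKM in JQ1+, 172 in flavopiridol and 143 in DMSO.

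Beyond the classical chains, Btnl2, a butyrophilin-like gene at the far end, fell to 2.42 RPKM in JQ1+ and 2.82 in flavopiridol, against 8.26 in DMSO. H2-Eb2, a further E beta gene, had 43.5 RPKM in JQ1+, 34.5 in flavopiridol and 35.1 in DMSO. The defective E alpha gene, listed as H2-Ea-ps, had 1.15 RPKM in JQ1+, 1.84 in flavopiridol and 1.995 in DMSO, far under the 2225 RPKM or more of H2-Eb1. Of the 10 measured neighbours on the list, which reaches beyond the region, 3 fell with JQ1+ and 1 with flavopiridol, with medians of -0.27 and -0.05. The third that fell with JQ1+ was Daxx, a histone chaperone gene (log2 -1.41 in JQ1+ and -0.98 in flavopiridol), and its flavopiridol value passes 2-fold under all 3 rescalings. Col11a2, a collagen gene of the wider region, had 5.42 RPKM in JQ1+, 2.81 in flavopiridol and 2.92 in DMSO.

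**Figure D5:**
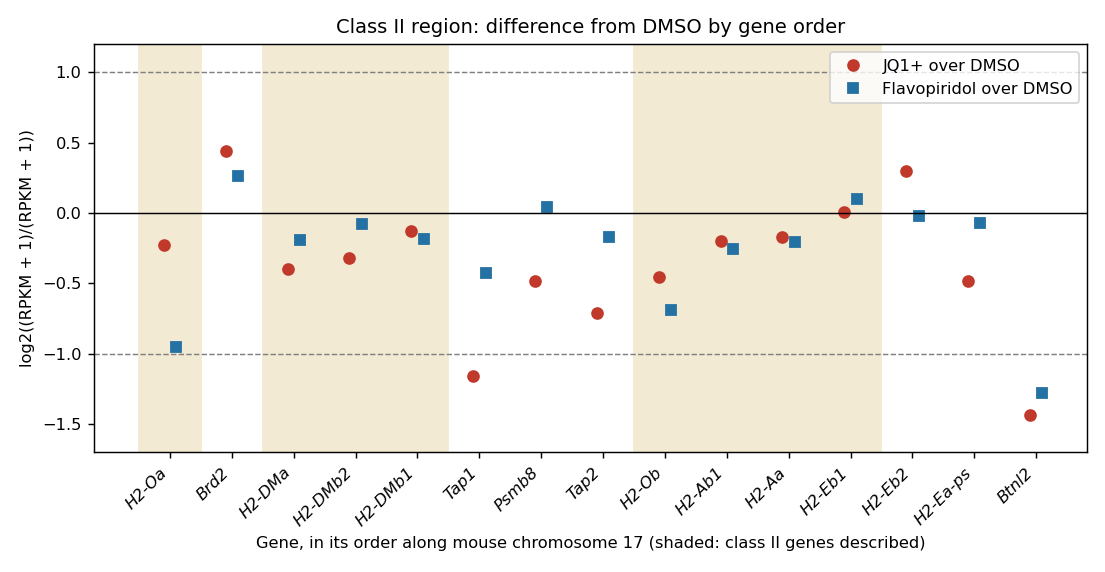
log2((RPKM + 1)/(RPKM + 1)) over DMSO, JQ1+ left of flavopiridol, for measured genes of the class II region in their order on mouse chromosome 17 (even spacing, no distance scale), with class II genes described here shaded and dashed lines at 2-fold. Tap1 (-1.16 in JQ1+) and Btnl2 (-1.44 in JQ1+ and -1.28 in flavopiridol) lie past 2-fold, and all shaded genes lie within it.

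The labelled cell type was checked against markers, since other antigen-presenting cells also make class II. The 8 B cell markers summed to 4928 RPKM in JQ1+, 4119 in flavopiridol and 4451 in DMSO, and 2 of 8 rose with JQ1+ (Ms4a1, the CD20 gene, log2 1.29, and Blk, a kinase gene, 1.04). Of the others, Cd79a, Cd79b, Cd22, Cr2 and Fcer2a stayed within 2-fold of DMSO in both drug libraries, and Cd22 passed it in flavopiridol under all 3 rescalings.

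Of 8 dendritic cell markers, 4 were measured, and the 8 summed to 10.7 RPKM in JQ1+, 35.1 in flavopiridol and 90.1 in DMSO. Batf3 and Flt3 fell with JQ1+ and Batf3 with flavopiridol. The other measured markers stayed within 2-fold on the log2 scale of the rule: Zbtb46 had 4.36 RPKM in JQ1+, 6.85 in flavopiridol and 6.63 in DMSO, and Xcr1 had 0.763, 2.59 and 0.918 RPKM, which in flavopiridol is 2.82 times DMSO in plain RPKM (interval 1.82 to 4.47). The markers below the minimum were at or near 0 in all 3 libraries. Itgax (0.020, 0.029 and 0.012 RPKM in JQ1+, flavopiridol and DMSO), Clec9a and Siglech had at most 2 counts each. Cd209a had 3 counts in DMSO and 0 in both drug libraries. In JQ1+, flavopiridol and DMSO, 3 counts would be 0.0585, 0.0598 and 0.0502 CPM (counts scaled to library total). The 8 macrophage markers, of which 3 were measured, summed to 20.1 RPKM in JQ1+, 33.8 in flavopiridol and 28.4 in DMSO. Emr1, the F4/80 gene, rose with flavopiridol to 9.47 RPKM, against 0.922 in DMSO and 0.801 in JQ1+. Cd68 gave most of the DMSO sum, with 12.5 RPKM in JQ1+, 19.7 in flavopiridol and 20.5 in DMSO. Csf1r had 4.03, 3.945 and 6.41 RPKM in the same order, and neither Cd68 nor Csf1r rose or fell. Lyz2, below the minimum, had 1.94, 0.044 and 0.181 RPKM in JQ1+, flavopiridol and DMSO. The 8 T cell markers summed to 26.4 RPKM in JQ1+, 17.2 in flavopiridol and 23.006 in DMSO, of which Lck gave 23.9, 14.5 and 20.5. Every one of these sums, like that of the B cell markers, lies below the 16446, 13530.1 and 16676 RPKM of the class II genes. This comparison therefore cannot separate B cells from other cells. The part of other cells in the class II values was not tested.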

How the data were processed

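Total RNA from 3 libraries, grouped by the treatment label, was depleted of ribosomal RNA with Ribo-Zero, per the labels' protocols. In the drug-treated samples the culture label reads as for DMSO, so the treatment label was used. The labels do not tie cultures to mice. The deposited tables hold, per the file headers, a count (whole numbers, not normalised) and an RPKM scaled by the authors to gene length and a library total. The submitters' processing notes name build mm9. Neither aligner, counter, annotation nor strandedness is given in the sources used here.

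Counts summed to 2.72, 2.92 and 2.84 times the total behind the RPKM for JQ1+, flavopiridol and DMSO, computed from GENCODE M21 exon lengths. In DMSO 1716 genes had a count of 2 and 1267 a count of 1, so counts are not independent fragments. For the exact conditional binomial intervals they were divided by 2.83. Floors use undivided counts and are too low for that reason. Intervals and floors cover counting error only.

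Where a symbol had several rows (92 symbols), its highest row by mean was kept. For 27 symbols turned into dates, March1 and March8 among them, names were looked up by Ensembl ID. No count model was fitted. Some genes of the lists are not reported here by name. The size rule and interval were tested on simulated data. Named genes were the 10 members, and from 11 lists each measured gene past 2-fold in any comparison, with up to 4 others of large difference. Rfx5, Pax5, Lamp1, the neighbours' order and the promoter motifs other than CCAAT were added after values or sequences were seen. Members and lists were chosen with earlier results of these data known. Python 3.11.15, scipy 1.17.1 and pandas 2.3.3 were used.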

Additional observations from a re-analysis of the deposited data

How the results depend on the processing

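No class II gene passed 2-fold under another pseudocount, another minimum or scaling to the sum of all counts, and 1, H2-Oa in flavopiridol against DMSO, passed it after rescaling by the median of ratios (-1.09) and to protein-coding counts (-1.03). The class II median with JQ1+ against DMSO was -0.0930 and -0.0912 under those rescalings, with flavopiridol against DMSO -0.3420 and -0.2754, and for JQ1+ against flavopiridol 0.2894 and 0.2246, and 0.1603 scaled to the sum of all counts. No directions against DMSO turned except that of H2-Eb1 in flavopiridol under the median of ratios (-0.04). Of all genes, 1075 passed 2-fold with JQ1+ against DMSO, and 1647 with a pseudocount of 0.1, 447 with 5, 609 with a minimum of 5 RPKM and 153 with 50 RPKM, the last added after seeing the data. With flavopiridol against DMSO 951 passed, and 1472, 322, 485 and 105 under the same settings. For JQ1+ against flavopiridol 1320 passed, and 439, 738 and 202 with a pseudocount of 5 and minimums of 5 and 50 RPKM. The lower share of called genes was 44.8% as deposited and 59.2% by the median of ratios with flavopiridol against DMSO, and 77.0% and 56.4% (62.4% by protein-coding counts) for JQ1+ against flavopiridol.

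No paired analysis was possible because each group has 1 library. Without replicates, a difference between cultures cannot be told apart from a drug's effect. Counting error limits H2-Oa most, with 1221 to 2921 counts.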

Other observations

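Genes whose 2 differences from DMSO were nearest to the class II median (-0.18 in JQ1+ and -0.20 in flavopiridol) were Arhgap30, Traf3ip2, Lipa, the lysosomal acid lipase gene, Snapc2 and Rpl17, a ribosomal protein gene. Arhgap30 had 199.6 RPKM in JQ1+, 199 in flavopiridol and 229 in DMSO, and Lipa had 27.7, 27.1 and 31.3 RPKM in the same libraries. Likeness was the Euclidean distance over the log2 differences, which share the DMSO library, among 5801 protein-coding genes averaging 20 RPKM or more. Within a distance of 0.1 lay 145 genes, so 3 libraries do not single out a small set.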
